A study of Rattus norvegicus with 24 samples.

Results

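Complement transcripts were followed in the retinas of rats made diabetic with streptozotocin (STZ), a toxin that destroys the insulin-producing beta cells of the pancreas. The members were the genes C1qb, C2, C3, C4a, Serping1 and C5ar1, and every array probe whose RefSeq accession maps to one of these symbols was taken. This gave 7 probes for 6 genes, of 4675 probes for 4013 genes that could be given a symbol in the same way. Whole retina was measured in 4 groups of 6 arrays from male Sprague Dawley rats: 1M Control, 1M STZ, 3M Control and 3M STZ. Here 1M and 3M stand for 1 and 3 months after the injection. Each array was taken as 1 rat, as labelled, although the study's table of animals lists 1 rat fewer in 1M Control. STZ rats received the toxin and no insulin, and entered the diabetic groups only if their blood glucose was high. Control rats received the vehicle alone and were matched to the STZ rats in age. The rats of the 3M groups were therefore older than those of the 1M groups, and whether both sets of arrays were processed at the same time is not given in the sources used here. The study states that the 1 and 3 month animals were produced and killed separately. Age, duration, cohort and processing of the 1M and 3M arrays cannot be separated, so their levels are given side by side with no test.

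Complement is a cascade of plasma and tissue proteins that tags cells and debris for removal. In the classical pathway C1q, of which C1qb encodes the B chain, binds its target, and C4 and C2 then form the enzyme that cleaves C3, the component on which all the activation pathways converge. Serping1 encodes C1 inhibitor, the serpin that blocks the C1 proteases, and C5ar1 encodes the receptor for the inflammatory fragment C5a. In the nervous system C1q is made mainly by microglia, and complement also marks synapses for removal during development.

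Of the 6 tested member probes, 1 per gene, 5 were called higher in 3M STZ and none was called at 1 month. The fifth, for C3, was not above background on any 3M array, and the other C3 probe went the opposite way. Serping1 rose most at 3 months, by 2.17 on the log2 scale (4.5-fold as measured, at least 4.05-fold with background allowed for). It was followed by C1qb at 1.25, C4a at 1.17 and C2 at 0.93, with the called C3 probe at 0.59. C5ar1 was at -0.27 and did not pass the test. A probe was called where limma's Benjamini-Hochberg adjusted p over all tested probes was under 0.05 and the difference was at least 1.2-fold. Among the 22025 probes tested on the whole array, 54.1% were called in either direction and 50.5% higher in 3M STZ, and their median difference was 0.445 (log2). The count of 5 of 6 has to be read against that share, and the sizes of the differences against that median. The 3 month log2 fold change of Serping1 was larger than that of 99.9% of the tested probes, with only 21 probes above it. The corresponding shares were 98.6% for C1qb, 98.0% for C4a, 93.7% for C2, 67.3% for C3 and 7.55% for C5ar1.

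The array facts that touch these values are as follows. Each value is a log2 intensity after scaling, so that 0 is the median rat probe of that array. The 3M arrays had a narrower spread (interquartile range of log2 values) than the 1M arrays, and it differed with diabetes, from 1.48 to 2.23 in 3M Control and from 2.07 to 2.70 in 3M STZ. Group accounted for 67.3% of the variance of this spread over the 3M arrays, and for 53.8% of the variance of array brightness, which had a median of 232 in 3M Control and 148 in 3M STZ. The array of 3M Control 2 correlated least with its own group, with a median r of 0.842. Without it the 3 month differences were 2.01 for Serping1, 1.13 for C1qb, 1.14 for C4a, 0.99 for C2 and 0.50 for C3, all still called. The highest signal to be taken as background was set at the 95th percentile of the 62 bacterial probes of each array. In bulk retina a change in the number of cells of a type and a change in the RNA per cell cannot be told apart.

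Promoter sequences were at hand for 3 members, C1qb, C4a and C3, and these sequences are shown. They are the 250 bases before the RefSeq start of each gene in the rat assembly GRCr8, read 5′ to 3′ on the strand of the gene, with motif matches in capitals. No promoter sequence was at hand for C2, Serping1 and C5ar1, which are named only.

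C1qb promoter, chr5:154407828-154408077, minus strand: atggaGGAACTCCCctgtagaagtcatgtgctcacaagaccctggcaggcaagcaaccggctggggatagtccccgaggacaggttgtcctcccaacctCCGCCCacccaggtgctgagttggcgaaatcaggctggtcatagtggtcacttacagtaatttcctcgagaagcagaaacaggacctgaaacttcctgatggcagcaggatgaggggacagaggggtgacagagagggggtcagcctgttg

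C4a promoter, chr20:4010107-4010356, plus strand: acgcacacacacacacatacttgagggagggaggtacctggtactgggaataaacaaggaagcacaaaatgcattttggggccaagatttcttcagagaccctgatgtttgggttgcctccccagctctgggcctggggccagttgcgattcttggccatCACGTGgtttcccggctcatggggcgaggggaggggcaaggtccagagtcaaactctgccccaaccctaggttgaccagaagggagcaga

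C3 promoter, chr9:2201340-2201589, minus strand: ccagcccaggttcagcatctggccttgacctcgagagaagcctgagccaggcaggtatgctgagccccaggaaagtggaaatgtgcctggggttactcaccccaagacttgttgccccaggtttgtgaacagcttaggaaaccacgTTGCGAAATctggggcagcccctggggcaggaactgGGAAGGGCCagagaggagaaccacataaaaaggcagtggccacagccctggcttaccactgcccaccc

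The letters searched on both strands were TTCNNNGAA (the GAS element of STAT factors), GAAANNGAA (IRF), TTNNGNAAT (C/EBP), GGNNNTTCC (NF-kappaB), CACGTG (E-box), GGGCGG (GC box) and, for the core element bound by the general transcription machinery, TATAAA. In C1qb the capitals mark an NF-kappaB match on the opposite strand at -245 to -237 and a GC box on the opposite strand at -151 to -146, counted from the base before the start as -1. In C4a they mark an E-box at -90 to -85. In C3 they mark a C/EBP match, TTGCGAAAT, at -104 to -96 and an NF-kappaB match on the opposite strand at -68 to -60. Of 33469 rat promoters of this length, 15.4% held the NF-kappaB letters, 10.9% the C/EBP letters, 5.59% the E-box, 30.5% the GC box, 7.67% the GAS letters, 8.12% the IRF letters and 12.9% the letters TATAAA. No motif was present in all 3 promoters, and these letter matches are descriptions of the windows and not binding sites.

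**Figure D1:**
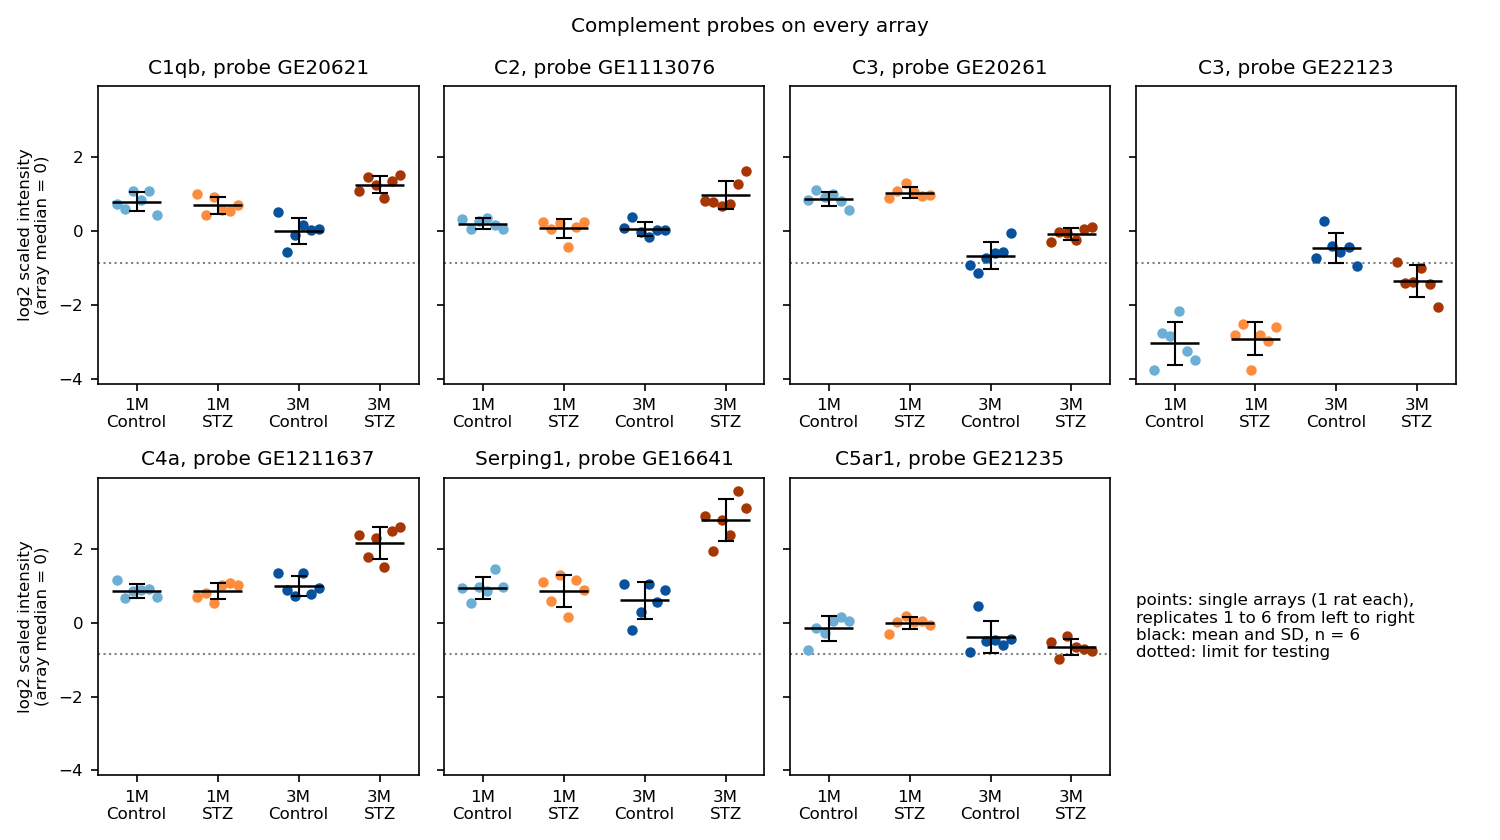
Log2 scaled intensity of the 7 complement probes on each of the 24 arrays, by group, with mean and SD (n = 6); the dotted line is the limit that a probe's median had to exceed to be tested. The 3M STZ points lie above all 3M Control points for C1qb, C2, C4a and Serping1, overlap for C3 probe GE20261, and the 1M groups overlap on every probe.

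Serping1, the inhibitor of the cascade's first step, was the member that differed most. Its log2 level (probe GE16641) ranged from -0.20 over a median of 0.73 to 1.06 in 3M Control, and from 1.95 over 2.83 to 3.57 in 3M STZ. Each 3M STZ retina was thus above each 3M Control retina. The means were 0.61 ± 0.50 in 3M Control and 2.78 ± 0.57 in 3M STZ (SD, n = 6). The difference of 2.17 had a 95% confidence interval from 1.671 to 2.668 (limma adjusted p = 1.3e-05). The probe was above the bacterial background level on 5 of the 6 3M Control arrays and on all 6 3M STZ arrays. With each control array at the higher of its own signal and that level, the rise was at least 4.05-fold. Before any scaling the intensity lay between 261 and 496 in 3M Control and between 587 and 1490 in 3M STZ, so the groups did not overlap on that scale either. Serping1 was also one of the genes that the study picked from these arrays for qPCR.

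At 1 month Serping1 showed no such separation. It ranged from 0.53 over 0.96 to 1.45 in 1M Control and from 0.15 over 1.00 to 1.29 in 1M STZ. The lowest and the highest of these 12 retinas were an STZ rat and a control rat, and the groups overlapped over most of their range. The difference was -0.08, with a 95% confidence interval from -0.581 to 0.416 (limma adjusted p = 0.9999). The 3 month difference exceeded the 1 month difference by 2.25 (limma interaction, adjusted p = 0.0028).

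C1qb, the B chain of the recognition molecule C1q, differed next most. Its log2 level (probe GE20621) ranged from -0.57 over a median of 0.05 to 0.52 in 3M Control, and from 0.89 over 1.31 to 1.53 in 3M STZ. All 6 STZ retinas were above all 6 controls, and the lowest STZ value belonged to the 3M STZ array with the narrowest spread. The difference was 1.25 (95% confidence interval from 0.914 to 1.591, limma adjusted p = 3.2e-05). The probe was above the bacterial background level on 1 of the 6 3M Control arrays and on all 6 3M STZ arrays, so the fold is given as a bound, at least 1.71-fold, with each control array at the higher of its own signal and that level. Both 1M groups lay above that level, between 0.45 and 1.09 in 1M Control and between 0.43 and 1.00 in 1M STZ, with a difference of -0.11 (95% confidence interval from -0.444 to 0.233). On this scale the 3M Control level was lower than either 1M level, and the 3M STZ level was higher.

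C4a, the classical pathway component that C1s cleaves, was above background on every 3M array. Its log2 level (probe GE1211637) ranged from 0.73 over a median of 0.91 to 1.34 in 3M Control, and from 1.5 over 2.34 to 2.59 in 3M STZ. The groups did not overlap, although 3M STZ 4 at 1.5 came close to 3M Control 1 and 4, both at 1.34. The difference was 1.17 (95% confidence interval from 0.814 to 1.516, limma adjusted p = 5.9e-05), which is 2.24-fold. At 1 month the ranges were 0.67 to 1.17 in controls and 0.54 to 1.07 in STZ retinas, and the difference was -0.01 (95% confidence interval from -0.360 to 0.342). The rat genome holds a closely similar gene, C4b, for which no probe was matched, so the signal may hold transcripts of both and the assignment to C4a is uncertain.

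C2, which pairs with C4 to form the classical C3 convertase, also separated at 3 months. Its log2 level (probe GE1113076) ranged from -0.16 over a median of 0.03 to 0.39 in 3M Control, and from 0.68 over 0.81 to 1.62 in 3M STZ. Of the 3M STZ retinas, 4 lay between 0.68 and 0.83, and 3M STZ 5 and 6 stood higher at 1.27 and 1.62. The probe was not above the bacterial background on any 3M Control array and was above it on all 6 3M STZ arrays. It was therefore at least 1.46-fold higher in 3M STZ, with the dim group taken in the same way. The measured means were 0.06 and 0.99, and the fitted difference was 0.93 (95% confidence interval from 0.607 to 1.249, limma adjusted p = 0.00019). At 1 month the difference was -0.13 (95% confidence interval from -0.452 to 0.189).

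C3, the central component, had a pair of probes to the same transcript that did not behave alike. On probe GE20261 the log2 level ranged from -1.12 over a median of -0.66 to -0.06 in 3M Control, and from -0.30 over -0.03 to 0.11 in 3M STZ. The groups overlapped, since 3M Control 6 at -0.06 was higher than 3M STZ 1 and 4. The difference was 0.59 (95% confidence interval from 0.287 to 0.894, limma adjusted p = 0.0028), close to the median over all tested probes. This probe was not above the bacterial background on any of the 12 3M arrays, so no fold is given. Its unscaled intensity was 131 to 156 in 3M STZ, inside the range of 117 to 185 in 3M Control. On the 12 1M arrays the same probe was always above background, from 0.57 to 1.11 in controls and from 0.91 to 1.30 in STZ retinas, with a difference of 0.16 (95% confidence interval from -0.139 to 0.468).

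The other C3 probe, GE22123, was under the limit for testing and was not above background on any array. It lay at the bottom of the scale in both 1M groups, between -3.76 and -2.15 in controls and between -3.75 and -2.51 in STZ retinas. At 3 months it stood between -0.93 and 0.28 in controls and between -2.06 and -0.84 in STZ retinas, a difference of -0.89, opposite in sign to that of GE20261. The direction of C3 at 3 months is therefore not settled by these probes.

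C5ar1, the receptor for C5a found on myeloid cells, was the member whose tested probe was not called higher in 3M STZ. Its log2 level (probe GE21235) ranged from -0.80 over a median of -0.49 to 0.45 in 3M Control, and from -0.99 over -0.69 to -0.35 in 3M STZ. The groups overlapped, and 3M Control 2 stood alone at 0.45 above the other controls, which were at -0.45 or below. The difference was -0.27 (95% confidence interval from -0.633 to 0.092, limma adjusted p = 0.1903), and -0.10 without 3M Control 2. No 3M array had this probe above the bacterial background, so an effect in either direction may have gone undetected at this signal. At 1 month the difference was 0.14 (95% confidence interval from -0.227 to 0.499).

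None of the 6 tested member probes was called at 1 month, where 0.00908% of all tested probes were called by limma, 2 of 22025. Their adjusted p was 0.9999 each, none had an unadjusted p under 0.05, and the methods' test called none of them at its threshold either. The intervals bound any 1 month difference of C1qb, C2, C3 and C4a to less than 0.5 on the log2 scale in either direction. The exact two-sided permutation test over the 924 splits of 6 against 6 arrays gave p values from 0.113 to 0.942 at 1 month. At 3 months it gave 0.00216, the smallest that this design allows, for C1qb, C2, C4a and Serping1, and 0.00649 for C3 and 0.203 for C5ar1. The groups did not overlap at 3 months on 4 of the 6 tested member probes, against 10.2% of all tested probes in either direction and 9.49% with STZ higher. At 1 month the groups overlapped on all 6, against 0.545% of all tested probes without overlap, 0.336% with STZ higher.

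The test of the difference between both time points was passed by the same 4 genes whose 3M groups separated. The 3 month effect was more positive than the 1 month effect by 2.25 for Serping1, 1.36 for C1qb, 1.17 for C4a and 1.06 for C2, with limma adjusted p from 0.0028 to 0.0132. The difference was 0.43 for C3 (adjusted p = 0.1253) and -0.41 for C5ar1 (adjusted p = 0.2081), neither of which passed. Of all tested probes 15.5% passed this test, 14.8% in the positive direction, and the median over all of them was 0.441.

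**Figure D2:**
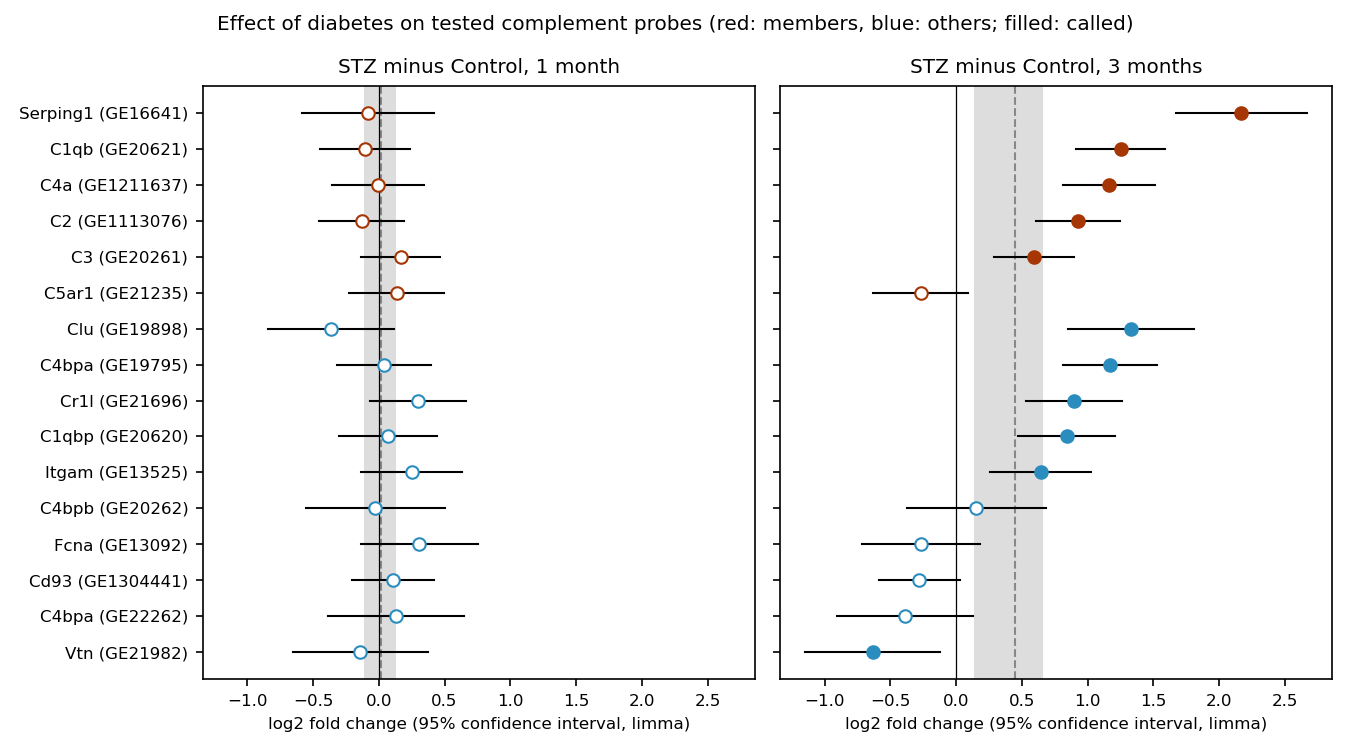
Log2 fold change, STZ minus Control, with 95% confidence interval from limma, for 16 tested complement probes at 1 month and 3 months (red, members; blue, other complement genes; filled, called); the dashed line and grey band are the median and quartiles of all tested probes. No probe is filled at 1 month, and at 3 months Serping1 at 2.17 lies furthest right and Vtn at -0.63 furthest left.

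Other genes of the complement system were taken from a list of 48 genes, of which 26 had a probe and 16, the members included, had a tested one. At 3 months 11 of the 16 were called higher, 1 lower and 4 neither way. Their median difference was 0.87 (log2), and none was called at 1 month, where the median was 0.05. Among the 10 that are not members, 6 were called higher, against 50.5% of all tested probes, and 1 lower, against 3.55%, with a median of 0.74. The classical pathway was represented by C1qb, C4a and C2 alone, all higher. No terminal component and no gene of the alternative pathway was tested.

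Regulators made up most of the remaining list, and 6 of 8 tested inhibitors, Serping1 included, were called higher, against 50.5% of all tested probes. Clu, the chaperone clusterin that also blocks the membrane attack complex, rose by 1.33 (limma adjusted p = 0.00025) without overlap between the 3M groups, and by 0.68 after quantile normalization, still called. C4bpa, the alpha chain of C4b-binding protein, was called higher on probe GE19795, with a fitted difference of 1.17 (adjusted p = 7.3e-05). That probe was above background on no 3M Control array and on 2 of 6 3M STZ arrays, so it was at least 1.03-fold higher, and the other probe GE22262 was at -0.39 and was not called. Cr1l, a membrane regulator of C3 convertases known as Crry, rose by 0.89 (adjusted p = 0.00059), and by 0.40 after quantile normalization, still called. C1qbp, a mainly mitochondrial protein that binds C1q, rose by 0.84 (adjusted p = 0.001), but only by 0.138 and with no call after quantile normalization.

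Vtn, vitronectin, which blocks assembly of the terminal complex, was the one gene called lower, by -0.63 (adjusted p = 0.035). The call rested on single arrays: without 3M Control 2 the difference was -0.378, and it was also not called without 3M Control 3, 3M STZ 3 or 3M STZ 6, at -0.617, -0.600 and -0.547. C4bpb, the beta chain of C4b-binding protein, was at 0.15 and was not called. Among receptors Itgam, the alpha chain of complement receptor 3, was called higher, with a fitted difference of 0.64 (adjusted p = 0.0073). Its probe was above background on no 3M Control array and on 3 of 6 3M STZ arrays, a bound of at least 1.01-fold, and the call was lost with array brightness as a covariate (0.295, adjusted p = 0.1747) and by the methods' test. Cd93 was at -0.28 with no call, but after quantile normalization it was called lower, at -0.71 (adjusted p = 0.0082). Fcna, a ficolin of the lectin pathway, was at -0.27 with no call.

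The remaining 10 complement genes on the array, C1s, C3ar1, C6, C9, Cd46, Cfi, Fcnb, Masp1, Mbl1 and Mbl2, had only probes under the limit for testing. Their differences at 3 months ran from -1.34 for Cd46 to 0.02 for Mbl2, and 9 of 10 were negative. By probe, 13 of the 14 dim complement probes were lower in 3M STZ, the dim C3 probe among them. Of all 11824 rat probes under the limit, 83.1% were lower in 3M STZ, with a median difference of -0.44, so the count is near that of dim probes in general. The part of the narrower spread of the 3M Control arrays in this direction was not tested.

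Markers of the cells that could carry these transcripts moved in part with the members. Of 12 microglia and macrophage markers 7 had a probe and 4 were tested, of which Cd74 rose by 1.36 (limma adjusted p = 0.00013) and Ctss by 0.49 (adjusted p = 0.011), while Aif1 at 0.21 and Cd14 at 0.09 were not called. Cx3cr1, Lyz2 and Ptprc were under the limit for testing. The summed scaled intensity of the list ranged from 7.26 to 12.7 in 3M Control and from 10 to 14.6 in 3M STZ. The 12.7 belonged to 3M Control 2, and the other 3M Control arrays reached at most 9.14. Of 9 Mueller glia markers 7 had a probe, and 4 of the 6 tested were called higher at 3 months, against 50.5% of all tested probes. These were Vim at 1.54, Gfap at 1.29, Slc1a3 at 0.88 and Dkk3 at 0.73, while Glul at 0.35 and Kcnj10 at -0.01 were not called. The median of the 6 was 0.80. The summed intensity of the Mueller list ranged from 63.1 to 180.0 in 3M Control and from 173.0 to 234.0 in 3M STZ. Of 7 endothelium markers 2 had a probe, and both were called higher at 3 months, Flt1 at 0.34 and Kdr at 0.59. The part of these cell types in the complement values was not tested.

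The tissue label was checked against rod genes, of which 5 of 10 had a probe, all of them tested, with a summed scaled intensity from 179.0 to 407.0 in 3M Control and from 321.0 to 503.0 in 3M STZ. Liver and plasma protein genes were dim: 1 of 4 with a probe was tested, and it was called lower at 3 months. Those under the limit differed by -0.45 for Alb, -0.53 for Fgb and 1.10 for Serpina1. Of the blood cell lists, the 1 tested erythrocyte gene, Alas2, was at -0.34 and the 1 tested neutrophil gene, S100a9, at -0.49. Neither was called. Lens genes moved strongly with diabetes at 3 months, with 2 of 3 measured genes called higher and a sum from 3.63 to 6.01 in 3M Control and from 6.12 to 131.0 in 3M STZ. In the 1M STZ group the sum reached 76.4 on 1 array. Retinal pigment epithelium genes summed to 97.7 on 3M STZ 1, against 8.96 on the next highest 3M STZ array and at most 13.4 in 3M Control. The part of lens or pigment epithelium material in the complement values was not tested.

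**Figure D3:**
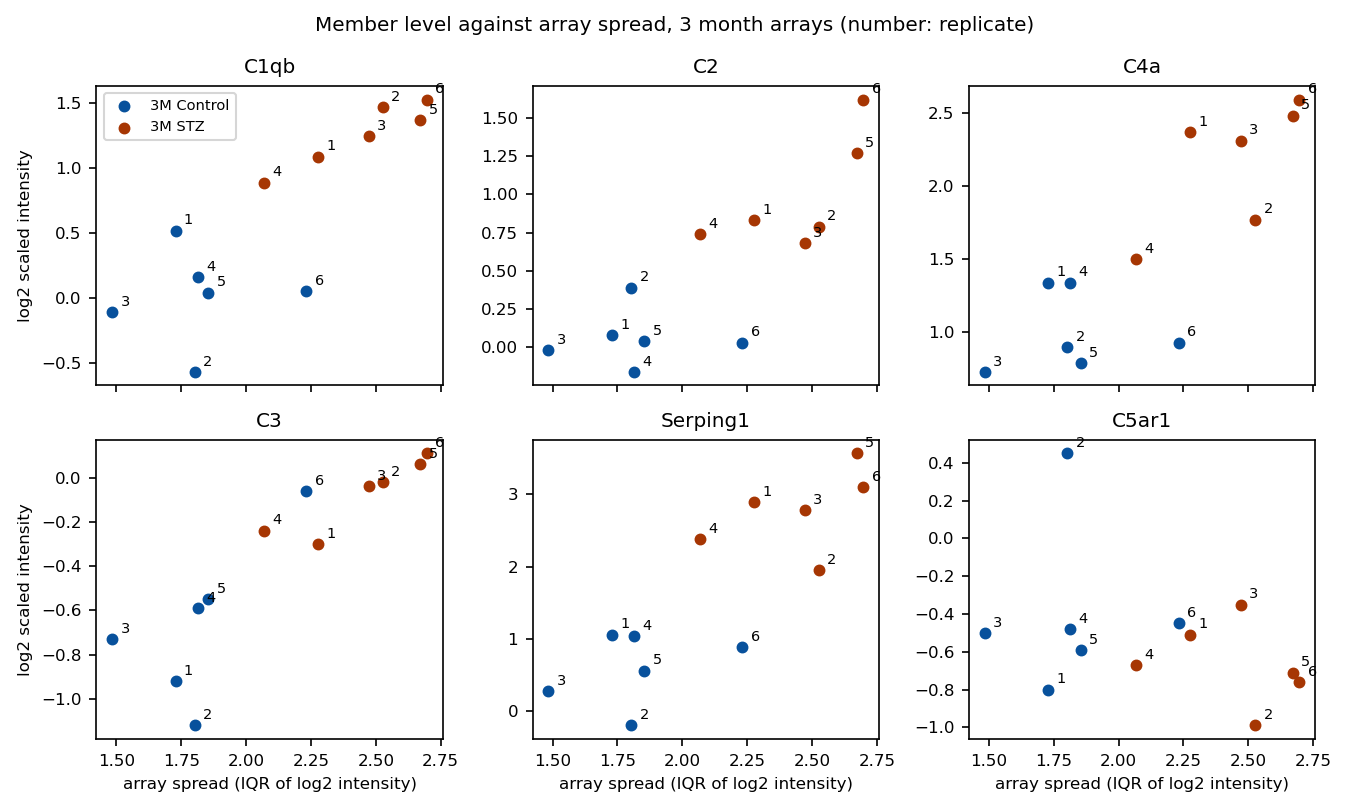
Log2 scaled intensity of the 6 tested member probes against the spread of each array (interquartile range of log2 intensity) for the 12 arrays of 3 months, numbered by replicate. The 3M STZ arrays lie mostly to the right, from 2.07 to 2.70 against 1.48 to 2.23 in 3M Control, so spread and group differ together.

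The order of the 3M STZ retinas was alike for some members and not for others. The 3M STZ 6 array was highest for C1qb, C2, C4a and C3 and was next to the highest for Serping1, and 3M STZ 5 was highest for Serping1 at 3.57. These were the arrays with the widest spread, 2.70 and 2.67. The 3M STZ 4 array, with the narrowest spread of 2.07, was lowest for C1qb and C4a. The 3M STZ 2 array, with a spread of 2.53, was lowest for Serping1 and C5ar1 and next to the lowest for C4a, but next to the highest for C1qb. No relation between spread and level within the group was tested.

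In spread the groups overlapped only through 3M Control 6 and 3M STZ 4, too few for a comparison. The 3M Control 6 array, with a spread of 2.23, lay between 3M STZ 4 and 3M STZ 1, at 2.07 and 2.28. Serping1 was 0.89 on that control array and 2.38 and 2.89 on the STZ arrays. C1qb was 0.05 against 0.89 and 1.09, C4a was 0.93 against 1.5 and 2.37, and C2 was 0.03 against 0.74 and 0.83. C3 was -0.06 against -0.24 and -0.30. These single arrays were picked after their values were seen, and the part of array spread in the 3 month differences was not settled by them.

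**Figure D4:**
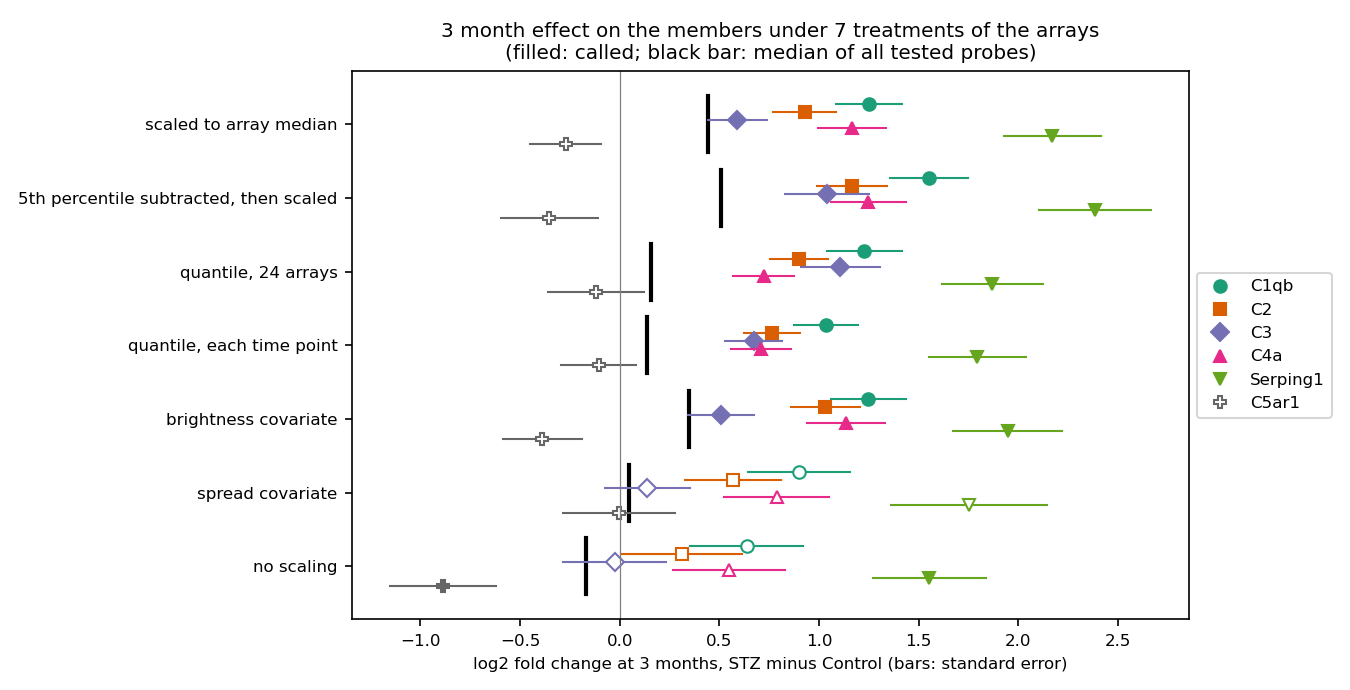
Log2 fold change at 3 months, STZ minus Control, of the 6 tested member probes with standard error under 7 treatments of the arrays; filled symbols were called, and the black bar is the median of all tested probes under that treatment. Serping1, C1qb, C2 and C4a stay above the median of all tested probes in each treatment, and no member is called with array spread as a covariate.

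The way the arrays were brought to a common scale moved both the members and the whole array. Quantile normalization over the 24 arrays lowered the median of all tested probes at 3 months from 0.445 to 0.159. The same 5 members remained called, with Serping1 at 1.87, C1qb at 1.23, C3 at 1.11, C2 at 0.90 and C4a at 0.72, each above that median. Of all calls at 3 months, 11130 of 11911 were higher with median scaling and 5424 of 6948 with quantile normalization.

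With no scaling between arrays the median of all tested probes at 3 months was -0.171. Serping1 was then called higher, at 1.55 (limma adjusted p = 0.0255), and C5ar1 was called lower, at -0.89 (adjusted p = 0.0483). C1qb at 0.64, C4a at 0.55, C2 at 0.31 and C3 at -0.03 were not called, with adjusted p from 0.1843 to 0.9835. With array spread as a covariate no probe of any gene was called, and 1934 had an unadjusted p under 0.05. Serping1 stood at 1.75 there, C1qb at 0.90, C4a at 0.79 and C2 at 0.57, each with an unadjusted p under 0.05, and C3 at 0.14 without. Diabetes and the spread of the 3M arrays cannot be fully told apart in this design.

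Levels across the groups were ordered differently from gene to gene. Serping1, C4a, C1qb and C2 had their highest mean in 3M STZ, at 2.78, 2.17, 1.27 and 0.99. The 3 other means of C4a, 0.87, 0.86 and 1.00, differed by less than their SDs of 0.18 to 0.27, and those of C2, 0.21, 0.08 and 0.06, by no more than about theirs. C1qb had its lowest mean, 0.01 ± 0.36, in 3M Control, under 0.80 ± 0.26 and 0.70 ± 0.23 in the 1M groups (SD, n = 6). C3 on probe GE20261 was highest in 1M STZ and 1M Control, at 1.05 ± 0.14 and 0.88 ± 0.18, and lower in 3M STZ and 3M Control, at -0.07 ± 0.16 and -0.66 ± 0.37 (SD, n = 6). C5ar1 ran from -0.02 in 1M STZ and -0.15 in 1M Control to -0.40 in 3M Control and -0.67 in 3M STZ, with SDs from 0.16 to 0.43.

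For each tested member the probes with the most similar profile were sought among 3125 probes with a symbol outside the complement list. Likeness was the root mean square difference over the 24 arrays, after each value was set against the mean of the controls of its time point. The nearest to Serping1 was A2m (alpha-2-macroglobulin, a plasma protease inhibitor) at 0.398, followed by Lgals3bp at 0.415 and Anxa5 at 0.440, against a root mean square of 1.163 for Serping1 itself. The nearest to C1qb were Npc2 at 0.225, Src at 0.266 and Vkorc1 at 0.280. The nearest to C4a were Efnb1 and Ramp2, both at 0.286, and Crip2 at 0.287, and to C2 they were Chrnb4 at 0.251, Nkx6-1 at 0.277 and Tspo at 0.286. C3 on probe GE20261 lay nearest to Or7a38c, an olfactory receptor gene, at 0.148, Csn1s2b, a milk casein gene, at 0.153 and Kcna5 at 0.174. C5ar1, whose own root mean square was 0.317, had Ltbp1 at 0.221, Vav1 at 0.224 and Nkg7 at 0.225 nearest.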

How the data were processed

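Retinal RNA of 24 samples, 6 per group, was labelled and hybridised to CodeLink rat whole genome arrays. Of their 33911 probes, 33849 were for rat transcripts. According to the authors' methods, spots with manufacturing defects were left out, the local background was subtracted and each array was normalised within itself. Intensity after background subtraction and a version divided by a constant per array were deposited, both on a linear scale, and the first was used here. No pair of arrays was identical, no value of a member was missing, and the table of the whole series matched the array files.

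Each array was divided by the median of its rat probes, a floor of 0.01 was then applied, and log2 was taken. The authors' methods set the same floor on the signal before scaling. Rat probes with a median scaled intensity over the 24 arrays above the 35th percentile (0.554) and at least 4 values per group were tested, which left 22025 probes. A single linear model of the 4 groups (limma 3.58.1, R 4.3.3) compared STZ and Control, and the difference between the effects was tested as an interaction. The test of the authors' methods, which allows unequal variances between the groups of a time point, is called the methods' test and took p under 0.01 and 1.2-fold. Exact two-sided permutation tests were run on the member probes. The model was checked on simulated data. How many arrays there were, and how far a probe stood above background, limits the precision.

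The members, the complement list, the marker lists and the motifs were chosen with earlier results of these data known. Named were all member probes, each other tested complement gene by its brightest probe (1 of them is counted but its own values are not reported here), the 3 nearest profiles of each member, and, chosen after their values were seen, the second C4bpa probe and the marker genes given by name. Symbols came from RefSeq accessions, of which 4015 of 4798 matched. The probe sequences and the members' proteins were not analysed here. Alternatives covered the test, the samples in the model, a replicate block, normalization, background, the filter, the floor, array brightness and spread as covariates, array weights and leaving out each array. The fit with no scaling between arrays was added after seeing the data.

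The study's own table of animals gives 1 rat fewer in the 1M Control group than the 6 arrays labelled so, and the labels were followed.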

Additional observations from a re-analysis of the deposited data

Results flagged for a closer look

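Of 28 sets of 6 arrays examined (7 member probes in 4 groups), 3 had an array whose distance from its nearest neighbour was large against the range of the group, where chance gives about 5% of sets. C2 was lowest on 1M STZ 4, at -0.42 on the log2 scale, and the gap was 0.71 of the group's range. C5ar1 was highest on 3M Control 2, at 0.45, with a gap of 0.716 of the range. The dim C3 probe GE22123 was lowest on 1M STZ 3, at -3.75, with a gap of 0.626 of the range, just over the critical 0.625.

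The effect of diabetes differed between 3 months and 1 month, by limma's interaction test, for 4 genes. The 3 month effect was larger by 2.25 for Serping1 (adjusted p = 0.0028), 1.36 for C1qb (adjusted p = 0.0065), 1.17 for C4a (adjusted p = 0.0125) and 1.06 for C2 (adjusted p = 0.0132), and these interaction calls were lost with array spread as a covariate and with no scaling between arrays.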

How the results depend on the processing

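Of the 6 tested member probes, 0 were called at 1 month under each alternative run. At 3 months 5 were called, and 5 remained called whichever single array was left out (5 to 5 calls). With array spread as a covariate 0 were called at 3 months and 0 passed the test of the difference between time points. With no scaling between arrays, an alternative chosen after seeing the data, 2 were called at 3 months and 0 passed that test. The number that passed it ranged from 4 to 5 when single arrays were left out, and C3 passed only without 3M Control 6, at 0.546. C3 also passed it after quantile normalization over all arrays (0.953) and with array weights (0.491), and C4a did not pass it after quantile normalization within each time point (0.715, adjusted p = 0.0558). C3 was not called at 3 months by the methods' test with adjustment (adjusted p = 0.0574).

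Some differences changed sign. With no scaling C3 went to -0.119 and C5ar1 to -0.148 at 1 month, and C3 to -0.025 and C4bpb to -0.462 at 3 months. With array spread as a covariate C4bpb went to -0.686 and C4bpa probe GE22262 to 0.262 at 3 months, and the C3 difference between time points to -0.035. Serping1 at 1 month was 0.103 with array weights. When single arrays were left out, the 1 month difference ranged from -0.052 to 0.055 for C4a and from -0.167 to 0.06 for Serping1, and C4bpb at 3 months from -0.059 to 0.261, negative only without 3M Control 2. In the fit with the replicate block the member counts were 0, 5 and 4, and the calls over all probes at 3 months were 11622, against 11911 without it. Replicate numbers did not pair the rats: deviations of same-numbered retinas correlated at -0.175 to 0.252 at 1 month and -0.238 to 0.218 at 3 months, and the same number was the best match for 2 of 6 and 1 of 6 rats.

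Over all tested probes, calls at 3 months were 3722 by the methods' test without adjustment, 1921 with it, 6948 after quantile normalization over all arrays, 5536 within each time point, 4058 with array brightness as a covariate, 0 with array spread and 970 with no scaling. At 1 month they ranged from 0 to 360, the highest with array weights, against 2. The causes of these shifts were not tested, and the signal over background limits C1qb (in 3M Control), C2, C3 and C5ar1 most.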
